A study of Mus musculus with 8 samples.

Results

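The Prader-Willi and Angelman imprinted domain lies on chromosome 7 of the mouse, and 8 of its genes were followed here by their names among the 55416 gene rows of a cortical mRNA count table: Ndn, Magel2, Mkrn3, Peg12, Snrpn, Snurf, Snhg14 and Ube3a. The cortices came from mice heterozygous for the L192P substitution in Ago2 (Ago2-L192P, 4 libraries) and from mice without it (WT, 4 libraries). Argonaute 2 is the protein that carries a miRNA to its target mRNAs. The knock-in was made by genome editing of C57BL/6JUke embryos and carried on by mating to WT mice, so each Ago2-L192P animal also held 1 unchanged copy of Ago2. Age and sex are not given in the labels, nor whether each library is a separate animal, and p-values measure the spread between these libraries. The question here was whether RNA of the domain differed between the genotypes.

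In an imprinted domain, 1 parental copy of a gene is silenced and the other is transcribed. In neurons, Ndn, Magel2, Mkrn3, Peg12 and the long Snurf, Snrpn and Snhg14 transcription unit are read from the paternal copy, and Ube3a is read mainly from the maternal one, since the far end of Snhg14 runs antisense through the paternal Ube3a gene. Loss of the paternal set causes Prader-Willi syndrome and loss of maternal UBE3A causes Angelman syndrome. Magel2 is known for strong expression in the hypothalamus. The counts do not separate the parental copies, so nothing below says from which copy an RNA came.

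The genes stood on GRCm39 chromosome 7 in the order given next, with positions from GENCODE. Ube3a ran from 58878492 to 58961832 on the plus strand and Snhg14 from 58957672 to 59628040 on the minus strand. Snrpn ran from 59630427 to 59820763 and Snurf from 59645197 to 59654797, both on the minus strand. Farther along came Ndn (61995473 to 62000010) and Magel2 (62026758 to 62031388) on the plus strand, then Mkrn3 (62067341 to 62069887) and Peg12 (62111619 to 62114258) on the minus strand. The first start and the last end were 3235767 bases apart, both included.

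RefSeq promoter windows on GRCm38.p6, from 250 bases before a gene's start to 50 after it, were at hand for all 8 genes. They are shown for Magel2 and Ndn, the neighbours with the smallest p in the comparison, and for the start that Snurf and Snrpn share. Capitals mark GGGCGG, the GC box, in Magel2 and CGCATGCG, the core of the motif of the factor NRF1, in the other windows. The Magel2 window is chr7:62376729-62377028 on the plus strand, the Ndn window is chr7:62348027-62348326 on the plus strand and the Snurf window is chr7:60005150-60005449 on the minus strand.
Magel2: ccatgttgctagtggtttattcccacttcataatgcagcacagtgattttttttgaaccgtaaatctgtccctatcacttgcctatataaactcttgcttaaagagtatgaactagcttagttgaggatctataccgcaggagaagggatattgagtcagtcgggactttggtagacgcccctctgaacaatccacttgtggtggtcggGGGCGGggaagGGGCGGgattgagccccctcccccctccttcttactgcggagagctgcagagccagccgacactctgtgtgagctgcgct
Ndn: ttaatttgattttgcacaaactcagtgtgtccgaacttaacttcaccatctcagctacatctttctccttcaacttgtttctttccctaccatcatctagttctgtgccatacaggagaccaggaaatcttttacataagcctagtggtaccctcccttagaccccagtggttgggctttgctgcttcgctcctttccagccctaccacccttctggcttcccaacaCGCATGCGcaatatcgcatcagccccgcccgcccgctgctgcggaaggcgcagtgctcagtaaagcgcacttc
Snurf and Snrpn: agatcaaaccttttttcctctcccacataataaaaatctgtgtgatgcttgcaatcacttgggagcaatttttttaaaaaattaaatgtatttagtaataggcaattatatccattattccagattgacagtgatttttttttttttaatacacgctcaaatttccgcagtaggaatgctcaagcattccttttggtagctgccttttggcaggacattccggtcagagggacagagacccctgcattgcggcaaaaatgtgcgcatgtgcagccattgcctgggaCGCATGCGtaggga

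The letters CGCATGCG, which read the same on both strands, were present in 1.87% of the 32544 distinct promoter windows. They were found once in the Ndn window, 23 bases before the start, and once in each of the 4 Snrpn windows. The Snrpn window farthest upstream is also the Snhg14 window, and the nearest is the Snurf window. No match was found in the windows of Magel2, Mkrn3, Peg12 and Ube3a. The matches that have 11 bases on either side within their window are set side by side, with the Snrpn windows numbered from the farthest upstream. They lie on GRCm38.p6 at chr7:62348243-62348272 (plus), chr7:60450222-60450251 (minus), chr7:60140285-60140314 (minus) and chr7:60048031-60048060 (minus).
Ndn: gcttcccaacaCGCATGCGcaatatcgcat
Snrpn 1 and Snhg14: gcaaacatccaCGCATGCGtgattggaagg
Snrpn 2: gcaaacatccaCGCATGCGtgatgggaggg
Snrpn 3: gcaaacatgcaCGCATGCGtcgttgaaggt

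The 3 upstream Snrpn windows also shared most letters before the motif, as printed above. GGGCGG, searched on both strands, was present in 35.9% of all windows and was found 2 times each in the windows of Magel2, Ndn and Ube3a, and the matches in Ndn overlap each other. Searched in the same way, TATAAA was found in Magel2 and in the third Snrpn window, against 13.6% of all windows, CCAAT in Mkrn3 and in the first Snrpn window, against 37.4%, and CCATNTT, the YY1 motif, in Magel2, Mkrn3 and Ube3a, against 16.1%. CANNTG, the E-box, was found in Magel2, Mkrn3, Peg12 and 3 of the 4 Snrpn windows, against 72.3%. The CG dinucleotide occurred 10 times in the Magel2 window, 11 times in Ndn, 15 in Mkrn3, 12 in Peg12 and 29 in Ube3a, and between 2 and 7 times in the Snrpn windows, against a median of 7 over all windows. These letters describe the windows, and no measurement of binding or methylation was analysed here.

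Reads were counted per gene, with totals between 20396357 and 43575900 counts per library. Replicate 1 of both genotypes had at most 1.82 normalized counts of the X-inactivation RNA Xist, and the other 6 libraries had at least 5180. A normalized count is a count divided by the library's DESeq2 size factor. Cortical excitatory markers were detected in every library, with summed normalized counts of 85454 to 91054 in Ago2-L192P and 85570.4 to 105856 in WT. Of the 8 genes, 7 had counts and 6 were given an adjusted p by DESeq2.

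Per kilobase of exon not shared with another gene of the same strand, Snrpn, the SmN core protein of the neuronal spliceosome, stood highest, with 2266 ± 275 normalized counts in Ago2-L192P and 2339 ± 96.8 in WT (SD, n = 4). Ndn, which encodes the MAGE protein necdin, followed with 1086 ± 27.1 and 920 ± 96.6. Ube3a, a ubiquitin ligase, had 108 ± 4.12 and 102 ± 9.45, and the noncoding host transcript Snhg14 had 32.7 ± 4.43 and 34.8 ± 2.96. Each of these levels was separated from the next by more than the spread of the libraries. Magel2, a MAGE protein that works with the ligase TRIM27 in endosomal protein recycling, had 21.2 ± 4.70 in Ago2-L192P and 8.75 ± 4.85 in WT. The makorin ubiquitin ligase Mkrn3 had 15.0 ± 5.11 and 13.2 ± 4.47, and the libraries of Magel2 and Mkrn3 overlapped in both genotypes. Peg12, a member of the Frat family of GSK3-binding proteins, was lowest with 1.47 ± 0.929 and 0.986 ± 0.264.

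**Figure D1:**
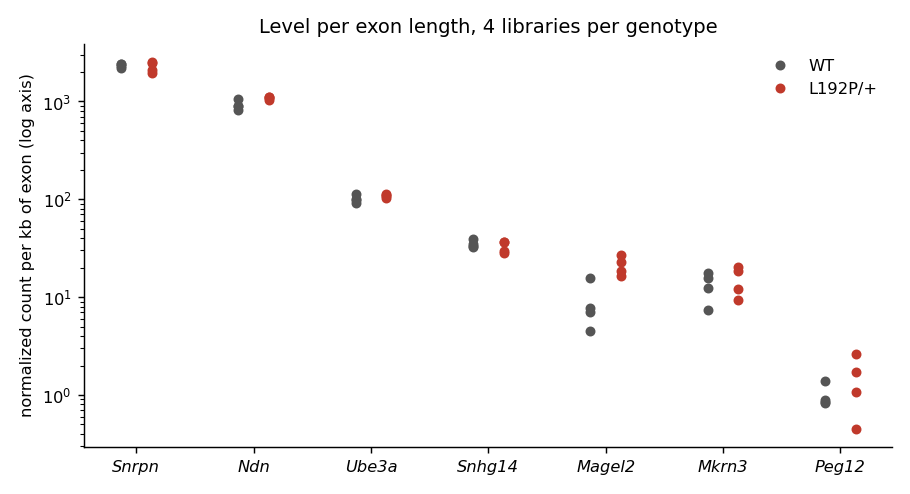
Normalized count per kilobase of unshared exon (log axis) for 7 genes of the domain, with 1 point per library in WT (grey) and Ago2-L192P (red). The genes span from about 2300 for Snrpn to about 1 for Peg12, and Magel2 is the gene whose red points all lie above its grey ones.

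The comparison of the genotypes was fitted with DESeq2 over the whole table. Of 18627 genes with an adjusted p, 253 (1.36%) were called at an adjusted p under 0.05, and 147 (0.789%) were called higher in Ago2-L192P. Among the 8 genes of the domain, 1 was called, Magel2, and it rose. An unadjusted p under 0.05 was seen for 2 of the 8, Magel2 and Ndn, against 9.44% of the genes tested. The normalized counts of the genotypes did not overlap for 1 of the 8, Magel2, against 5.97% of the genes tested.

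Magel2 had 75.7, 125, 105 and 86.2 normalized counts in Ago2-L192P replicates 1 to 4. In WT replicates 1 to 4 it had 72.8, 35.6, 32.6 and 21.1. The genotypes were parted only by the narrow gap between Ago2-L192P replicate 1 and WT replicate 1, while the other WT libraries reached at most 35.6. The means were 98.0 ± 21.8 and 40.5 ± 22.4 (SD, n = 4), and the log2 fold change was 1.26 (SE 0.31, DESeq2 adjusted p = 0.00809), a fold of 2.40 with a 95% interval of 1.58 to 3.65. By DESeq2's unadjusted p it ranked 100 among the 18627 genes tested. By exact permutation of the normalized counts (two-sided, n = 4 per genotype), p was 0.0286, the smallest that 70 assignments can give. These values rest on few reads, between 18 and 110 raw counts per library.

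The call for Magel2 depended on the test and on single libraries. It had an adjusted p of 0.134 with edgeR's quasi-likelihood test and 0.0972 with limma-voom, with log2 fold changes of 1.25 and 1.33. DESeq2 without Ago2-L192P replicate 2 gave an adjusted p of 0.0912, and without WT replicate 2, 3 or 4 it gave 0.0606, 0.0565 and 0.0609. Without WT replicate 1 the log2 fold change was 1.69 (DESeq2 adjusted p = 7.57e-07). In the 6 Xist-high libraries it was 1.80 (DESeq2 adjusted p = 8.84e-07), where 1.65% of 14437 genes were called higher. Over 20 alternatives the log2 fold change lay between 1.06 and 1.83, and it was above 0 in each of them.

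Ndn had 3950.0, 4169.6, 4149 and 4141 normalized counts in Ago2-L192P replicates 1 to 4. The WT libraries had 3985, 3423, 3119.8 and 3370.4. The genotypes overlapped only because Ago2-L192P replicate 1, its lowest library, lay just under WT replicate 1. The means were 4102 ± 102 and 3475 ± 365 (SD, n = 4), and the log2 fold change of 0.24 (SE 0.08) did not pass, with a DESeq2 adjusted p of 0.0896. It passed in the 6 Xist-high libraries at a log2 fold change of 0.33 (DESeq2 adjusted p = 2.72e-05) and without WT replicate 1 at 0.31 (DESeq2 adjusted p = 9.28e-05).

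The labels do not say what the replicate numbers stand for. In these same counts, same-numbered libraries of both genotypes deviated together from their genotype means. The numbers were therefore taken to pair the libraries, and a replicate block was fitted as well. Against the WT library of the same number, Magel2 was at a log2 ratio of 0.05, 1.81, 1.69 and 2.03 for numbers 1 to 4, higher in 4 of 4 pairs. For Ndn these ratios were -0.01, 0.28, 0.41 and 0.30, higher in 3 of 4 pairs. With the replicate block Ndn passed, with a log2 fold change of 0.24 (DESeq2 adjusted p = 0.00832), where 1.82% of 12536 genes were called higher. Magel2 had a log2 fold change of 1.37 with the replicate block and no adjusted p, because independent filtering, which sets aside genes with a low mean count, took it out. With the replicate block and independent filtering off, both passed, Magel2 at a DESeq2 adjusted p of 0.00498 and Ndn at 0.0207, where 0.474% of 32676 genes were called higher.

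**Figure D2:**
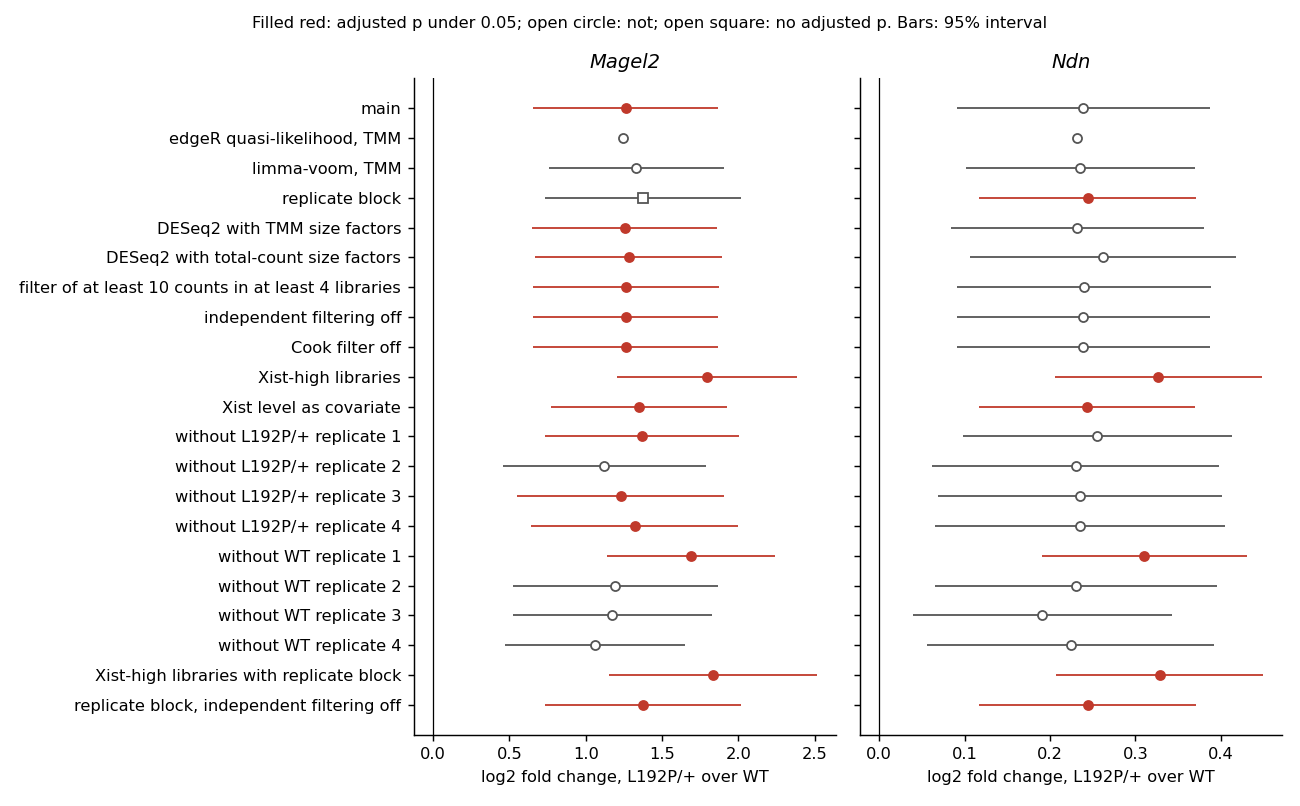
Log2 fold change of Magel2 (left) and Ndn (right), Ago2-L192P over WT, for the DESeq2 fit (main, top) and 20 alternatives, with 95% intervals except for edgeR. Filled red points have an adjusted p under 0.05, open circles do not, and the open square has no adjusted p. All points lie above 0, between 1.06 and 1.83 for Magel2 and between 0.19 and 0.33 for Ndn.

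Within a library, Magel2 stood at 1.92, 3.002, 2.53 and 2.08 counts per 100 counts of Ndn in Ago2-L192P replicates 1 to 4. In WT replicates 1 to 4 the ratio was 1.83, 1.04, 1.04 and 0.625, so the genotypes did not overlap. The means were 2.38 ± 0.488 and 1.13 ± 0.503 (exact two-sided permutation p = 0.0286, and 0.0762 after Benjamini-Hochberg adjustment over 4 such ratios, n = 4). By the 4 same-numbered pairs the ratio was higher in Ago2-L192P in 4 of 4 (exact sign-flip permutation p = 0.125, two-sided, also the smallest possible). Across the 8 libraries the logarithms of Magel2 and Ndn had a Pearson r of 0.92, and of 0.78 after the mean of each genotype was taken out. Ube3a had an r of 0.72 with Ndn and 0.68 with Magel2, and of 0.64 and 0.58 without the genotype means. Mkrn3 had an r of 0.35 with Ndn and 0.57 with Magel2, and of 0.33 and 0.72 without them. With Ndn and Magel2, Snrpn had -0.14 and -0.05, and Snhg14 had -0.08 and -0.26. The libraries shared their dissection and depth between the genes, and no p is given.

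Mkrn3, mutated in families with early puberty, had 30.8, 51.2, 47.3 and 24.0 normalized counts in Ago2-L192P and 40.1, 44.6, 31.5 and 18.7 in WT. The genotypes overlapped throughout. Its log2 fold change was 0.16 (SE 0.34, 95% interval -0.50 to 0.82, DESeq2 adjusted p = 0.968), an interval that reaches from a fold of 0.705 to 1.77. Peg12 had 3, 4, 6 and 1 raw counts in Ago2-L192P and 4, 4, 2 and 2 in WT, too few for an adjusted p, and a difference was not detectable at this depth.

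**Figure D3:**
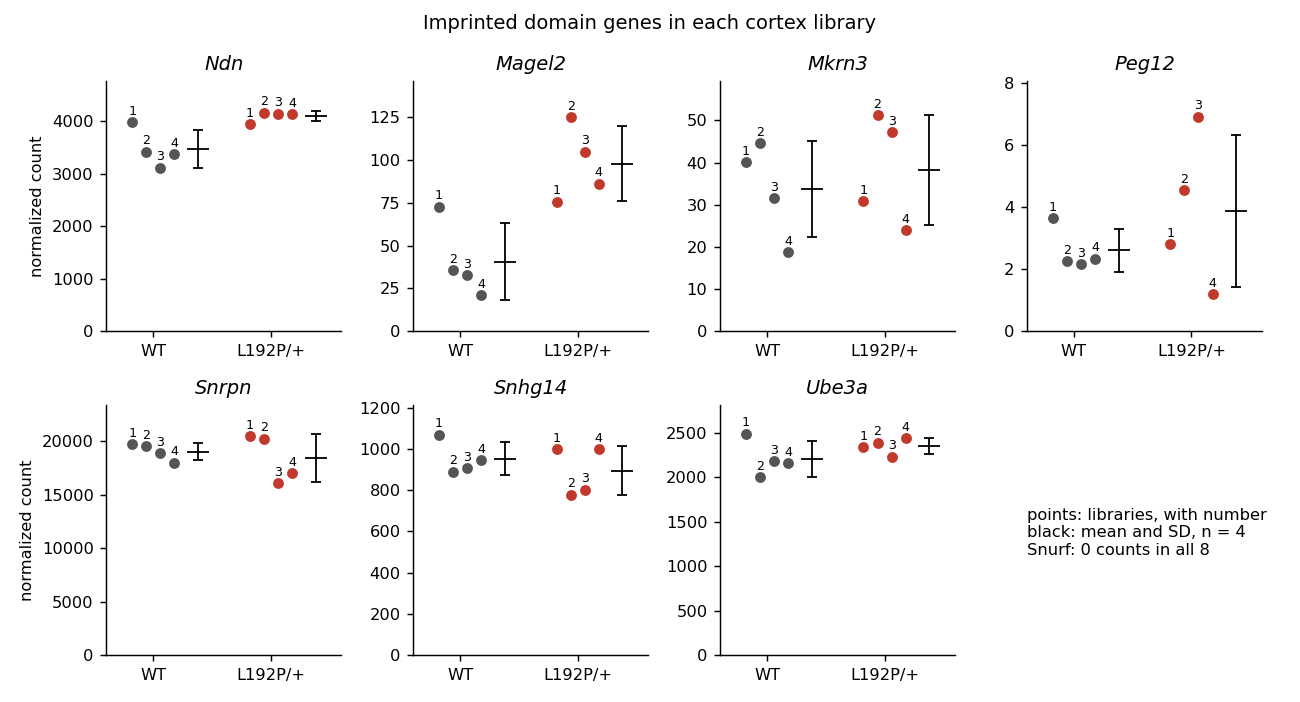
Normalized counts of 7 genes of the domain in each library, with the library number beside each point and the mean and SD of 4 libraries in black. Magel2 is higher in all Ago2-L192P libraries (75.7 to 125) than in WT (21.1 to 72.8), and the other 6 genes overlap between the genotypes.

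Snrpn had 20481, 20252.7, 16095 and 17001 normalized counts in Ago2-L192P. It had 19749, 19579, 18870.0 and 18018 in WT. The WT libraries lay inside the range of the Ago2-L192P libraries. The log2 fold change was -0.05 (SE 0.08, 95% interval -0.21 to 0.12, DESeq2 adjusted p = 0.954). Of the summed normalized counts of the paternally expressed genes followed here, Snrpn made up 78.1% ± 2.23 in Ago2-L192P and 80.9% ± 1.30 in WT (SD, n = 4).

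Snurf, the small protein read from the same transcript as Snrpn, had 0 counts in all 8 libraries. All 216 bases of its annotated exons lie in exons of Snrpn and of Gm38393 on the same strand, so a read there belonged to more than 1 gene and the 0 is not a measure of the transcript. Gm38393, an annotated transcript from the Snurf start through Snrpn, had 332, 209, 249 and 280.3 normalized counts in Ago2-L192P and 255, 199.97, 217 and 231 in WT, which overlapped. Its log2 fold change was 0.25 (SE 0.15, DESeq2 adjusted p = 0.647).

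Snhg14, which hosts the snoRNAs of the domain, had 1002, 779.5, 804 and 1000.2 normalized counts in Ago2-L192P. In WT it had 1071, 891, 908 and 948. Ago2-L192P replicates 2 and 3 were the lowest of the 8 libraries, and replicates 1 and 4 lay within the WT range. The log2 fold change was -0.09 (SE 0.10, 95% interval -0.29 to 0.11, DESeq2 adjusted p = 0.912). Of 210 snoRNA rows inside the domain, 7 had any count, 87 counts in all, in libraries made from polyadenylated RNA. The 20 miRNA rows inside the domain had 34 counts in all.

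Ube3a had 2345, 2391, 2233 and 2444 normalized counts in Ago2-L192P. In WT it had 2492, 2001, 2181 and 2159.9. WT replicate 1 was the highest of the 8 libraries and WT replicate 2 the lowest, so the genotypes overlapped. The log2 fold change was 0.09 (SE 0.08, 95% interval -0.06 to 0.24, DESeq2 adjusted p = 0.815). Exons of opposite-strand genes, Snhg14 among them, covered 5979 of the 21740 exon bases of Ube3a, and the sources do not say whether reads were counted by strand. Over the whole table, 76 of 515 genes that lie wholly under opposite-strand exons, with no same-strand overlap, had at least 10 counts over the 8 libraries. Of these, 4 had at least 1000. Were strand ignored in counting, a read on such a gene would belong to more than 1 gene, as described for Snurf. The strand setting itself was not tested. Snhg14 stood at 42.7, 32.6, 36.0 and 40.9 counts per 100 counts of Ube3a in Ago2-L192P and at 43.0, 44.5, 41.6 and 43.9 in WT. The means were 38.1 ± 4.62 and 43.3 ± 1.25 with overlapping libraries (exact two-sided permutation p = 0.0571, adjusted 0.0762 over the 4 ratios, n = 4). Within the pairs of same-numbered libraries the ratio was lower in Ago2-L192P in 4 of 4, with an exact two-sided sign-flip permutation p of 0.125, the smallest that 4 pairs can give.

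In the region from 1000000 bases before the first gene to as many after the last, 21 other gene rows had an adjusted p and 0 of them were called by DESeq2. An unadjusted p under 0.05 was given to 2 of these 21, against 9.44% of all genes tested. The log2 fold changes of the 21 ran from -0.35 to 0.65 with a median of 0.17, against a median of 0.00191 over all genes tested. The list of flanking genes held 15 neighbours of the domain or of its human counterpart. Among them were the GABA receptor genes Gabra5 and Gabrg3 and the ubiquitin ligase Herc2. Of the 15, 0 were called by DESeq2 and 1 had an unadjusted p under 0.05, against the same 9.44%. The median log2 fold change of the 15 was -0.04. Fan1, a DNA repair nuclease, stood highest at 0.26 (DESeq2 adjusted p = 0.532) and Gabra5 lowest at -0.12 (DESeq2 adjusted p = 0.920).

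**Figure D4:**
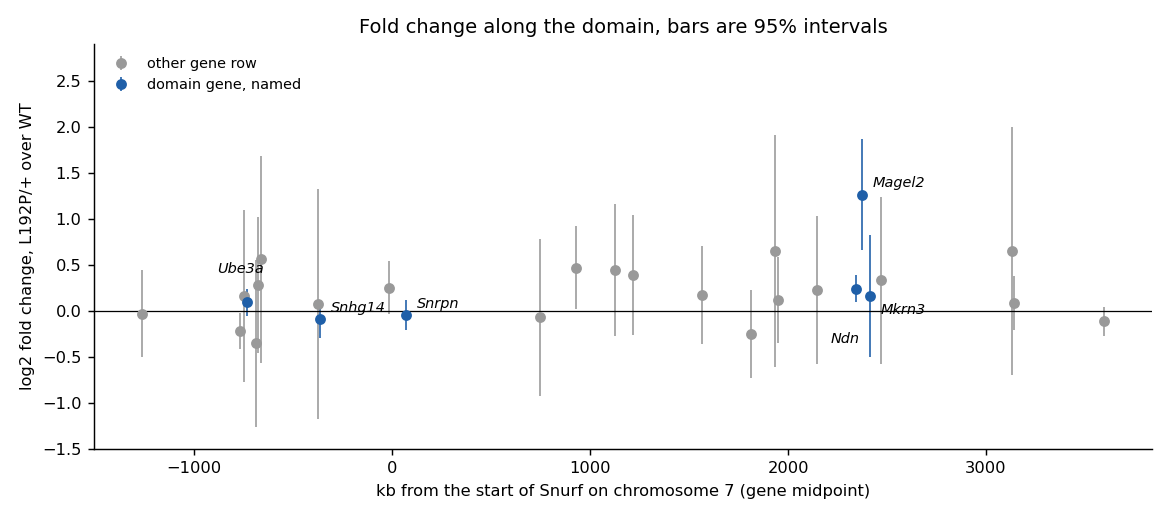
Log2 fold change, Ago2-L192P over WT, of the 27 gene rows with an adjusted p in the region, against the distance of the gene's middle from the start of Snurf in kb, with 95% intervals. Magel2 at 1.26 stands above the other rows, which run from -0.35 to 0.65.

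Magel2 and necdin belong to the MAGE family, whose members bind ubiquitin ligases. On a list of 23 MAGE genes and partners, 2 rose and 0 fell, with a median log2 fold change of 0.02, against the 1.36% of all genes that were called. The list was chosen with earlier results of these data known. An unadjusted p under 0.05 was given to 5 of the 23, against 9.44% of all genes. These were Ngfr, Magee1, Magee2 and Maged1, all higher in Ago2-L192P, and E2f1, lower at a log2 fold change of -0.20. Ngfr, the p75 neurotrophin receptor and a partner of necdin, had 152, 267, 176 and 234 normalized counts in Ago2-L192P and 131, 91.5, 93.4 and 85.5 in WT. The genotypes did not overlap, and the log2 fold change was 1.04 (SE 0.20, DESeq2 adjusted p = 9.92e-05). Magee1, another MAGE gene, had 4296, 4552, 4443 and 4558 against 3893, 4038, 3848 and 3921, at a log2 fold change of 0.18 (SE 0.05, DESeq2 adjusted p = 0.0216). Magee1 did not overlap either. For Ngfr the nearest libraries were replicate 1 of both genotypes, at 152 and 131, against SDs of 52.6 in Ago2-L192P and 20.8 in WT. Both calls are those of DESeq2 with genotype as the only term. The ligase and trafficking partners of Magel2 on the list, including Trim27, Usp7 and the retromer and WASH genes, were not called.

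The lists in this paragraph were also chosen with earlier results of these data known. Of the 8 makorin genes and puberty genes set beside Mkrn3, 7 had an adjusted p and 1 rose, against 0.789% of all genes tested. An unadjusted p under 0.05 was given to 4 of the 7, against 9.44% of all genes. These were Tac2, Gnrh1 at a log2 fold change of 1.62, Mkrn1 at -0.13 and Nptx1 at -0.15. Gnrh1 had few reads, from 1.09 to 19.2 normalized counts per library, and its genotypes overlapped (SE 0.71, DESeq2 adjusted p = 0.364). Tac2, which encodes neurokinin B, had 226, 178, 202 and 231 normalized counts in Ago2-L192P and 148, 147, 152 and 129 in WT, without overlap. Its log2 fold change was 0.53 (SE 0.14, DESeq2 adjusted p = 0.0144). Among the remaining lists, none of the 11 genes of the Sm ring and its assembly, the partners of SmN, was called by DESeq2 (0 also at an unadjusted p under 0.05), with Snrpb highest at a log2 fold change of 0.09 and Snrpf lowest at -0.07. The same held for the 6 GSK3 and Frat genes, from Axin1 at 0.11 to Gsk3a at -0.09, and for the 17 partners and substrates of Ube3a, from Arhgef15 at 0.12 to Arc at -0.47. Of 15 genes that keep imprints or act on this domain, 0 were called by DESeq2 and 2 had an unadjusted p under 0.05, against 9.44% of all genes. Top2b, a topoisomerase, was highest at 0.21 (DESeq2 adjusted p = 0.115) and the methyltransferase Dnmt3a lowest at -0.08.

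Several markers of the hypothalamus and of the basal forebrain were, like Magel2, higher in Ago2-L192P. The 12 hypothalamus markers summed to 976, 344, 1396 and 915 normalized counts in Ago2-L192P replicates 1 to 4 and to 313, 222, 193 and 319.6 in WT. The sums did not overlap. The Ago2-L192P library with the most Magel2, replicate 2, had the smallest hypothalamus sum of its genotype. Avp (329, 19.3, 459 and 220 in Ago2-L192P replicates 1 to 4) and Oxt (145, 19.3, 143 and 155) were lowest there. Agrp, Pomc, Sim1 and Otp were also lowest in that library. Hcrt, Pmch, Nkx2-1 (62.6, 92.2, 83.0 and 107), Gal and Trh (225, 138, 112 and 190) were not. Single markers differed in how they went with Magel2 over WT replicates 1 to 4. Sim1 (13.7, 0, 0 and 0), Otp (11.8, 1.13, 1.09 and 1.17) and Trh (135, 98.9, 60.8 and 56.2) were highest in WT replicate 1, as Magel2 was. Hcrt, Pmch, Agrp and Avp were also highest there. Pomc (44.6, 48.0, 27.2 and 174) was highest in WT replicate 4 and made up most of its sum. Gal was highest in WT replicate 2, and Oxt and Nkx2-1 in WT replicate 3. Oxt was lowest in WT replicate 1, at 2.73. Nkx2-4 was at 0 in each WT library. Apart from Trh, Pomc and Nkx2-1, the markers had at most 21.9 normalized counts in a WT library. The marker lists, too, were chosen with earlier results of these data known, so the shares below are no test of them. Of the 12 markers 9 had an adjusted p. Of these, 6 had an unadjusted p under 0.05, against 9.44% of all genes, and 4 rose, against 0.789% of all genes. These were Avp, Oxt, Otp and Gal, with Oxt, the oxytocin gene, at a log2 fold change of 4.53 (DESeq2 adjusted p = 3.69e-07). Avp overlapped between the genotypes, at 19.3 in Ago2-L192P replicate 2 and 21.9 in WT replicate 1. The log2 fold change was above 0 for 8 of the 9 and below it for Pomc, at -0.12 (DESeq2 adjusted p = 0.993). Between 0 and 3 of the 12 were at 0 in a library, and none was at 0 in all.

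The 7 markers of septum, preoptic area and basal forebrain summed to 2654, 3121, 2209 and 2556 in Ago2-L192P and to 1938, 1304, 1836 and 1187 in WT, without overlap. An unadjusted p under 0.05 was given to 5 of the 7, against 9.44% of all genes. Of them 2, Zic1 and Zic2, rose, against 0.789% of all genes. The same shares of all genes apply to the marker counts below. The Ago2-L192P library with the most Magel2 had the largest sum. The 5 thalamus markers summed to 3380.4 to 6563 in Ago2-L192P and 3168 to 3699 in WT, with 0 called by DESeq2 and 2 at an unadjusted p under 0.05. The 7 striatum markers summed to 21605 to 27163 and 27710.2 to 33351. Of the 9 cortical excitatory markers 0 were called by DESeq2, 3 had an unadjusted p under 0.05, and the median log2 fold change was -0.15. The part of these regions in the Magel2 and Ndn values was not tested, and in bulk tissue more cells of a kind and more RNA per cell cannot be told apart. Sums of astrocyte, oligodendrocyte, microglia, endothelium and choroid plexus markers overlapped between the genotypes, with 0 genes called by DESeq2 and 2 microglia markers at an unadjusted p under 0.05.

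**Figure D5:**
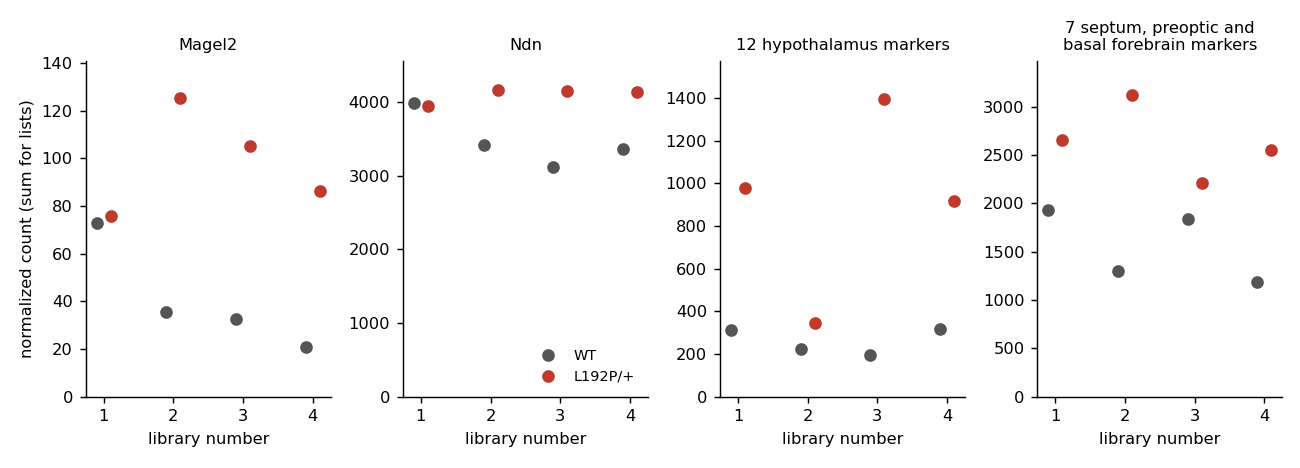
Normalized counts of Magel2 and Ndn and the summed normalized counts of 12 hypothalamus markers and 7 markers of septum, preoptic area and basal forebrain, by library number, in WT (grey) and Ago2-L192P (red). Number 1 shows Magel2 at 75.7 in Ago2-L192P and 72.8 in WT, with hypothalamus sums of 976 and 313. The septum, preoptic and basal forebrain sums of number 1 are 2654 and 1938. Among the WT libraries, number 1 is highest for Magel2, Ndn and the latter sum, and number 4 for the hypothalamus sum.

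The genes most like Magel2 in pattern over the 8 libraries, among 13421 searched, were Stk32b, a protein kinase, with a Pearson r of 0.98, and Calb2, which encodes calretinin, and Rhov, a small GTPase, both at 0.96. Of these 3, Calb2 rose, at a log2 fold change of 1.11 (DESeq2 adjusted p = 0.0144). Closest to Ndn were Ndnf, a neurotrophic factor gene, at 0.97, and Resp18 and Slc7a3 at 0.96, of which Ndnf (0.50, DESeq2 adjusted p = 0.00921) and Resp18 (0.47, DESeq2 adjusted p = 4.5e-04) rose. Mkrn3 was closest to Ttr at 0.96, followed by Tacc3 and Naxd. Snrpn was closest to Fam219a at 0.96, followed by 2810004N23Rik and Ldb1. Snhg14 was closest to Glrx2 at 0.98, followed by Snrpb2 and Snrpd3. Ube3a was closest to Ap1s2 at 0.99, followed by Matr3 and Set. With so few libraries and so many genes searched, values this high describe the ordering of libraries and carry no p.

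Since Argonaute 2 is guided by miRNAs, the 3′ UTRs of the canonical GENCODE transcripts were searched for matches to bases 2 to 8 of 10 miRNAs known from the brain. The Magel2 3′ UTR, 436 bases long and longer than those of 27.3% of 20680 genes, held a match to 0 of the 10. The neuronal miRNA miR-124-3p was not analysed here, so a match to it is not covered. Each of Ndn, Mkrn3, Peg12, Snrpn and Ube3a held a match to 1 of them, and Peg12 and Snrpn shared miR-181a-5p. The Ndn match was to miR-132-3p, a miRNA induced by neuronal activity, whose match is in 11.6% of all 3′ UTRs searched. It is printed with its miRNA, in which capitals mark the seed, and the site lies on GRCm39 at chr7:61999580-61999606 on the plus strand, with the match in capitals.
miR-132-3p: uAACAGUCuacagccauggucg
Ndn site: tgatttgaactgGACTGTTctcagtgt

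A match describes the letters of the UTR, and no binding was measured in these libraries.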

How the data were processed

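Per the labels, total RNA of cerebral cortex was extracted with the RNeasy microkit and made into stranded mRNA libraries. Reads were aligned by the authors to GRCm39 with STAR (2.7.9a in the submitters' processing notes), counted per gene with featureCounts 1.5.1 and deposited as raw counts with no pooling. The strand setting and the annotation release are not given in the sources used here. A deposited table of scaled values was not used.

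Raw counts were fitted with DESeq2 1.42.0 in R 4.3.3 (genotype as the only term, all 8 libraries, Cook and independent filters on, 18627 genes kept), and calls were made at an adjusted p (Benjamini-Hochberg) under 0.05. The tool and threshold follow the methods of the study. Fold changes are unshrunken, with 95% intervals from their standard errors. Patterns were compared by Pearson r of log2(normalized count + 1) over genes with a mean of at least 50. Alternatives were edgeR 4.0.16, limma 3.58.1 (voom), other size factors and filters, the replicate block, Xist level, and leaving out each library. The replicate block with independent filtering off and the block within Xist-high libraries were chosen after seeing the data, as was the paired sign-flip test of the ratios.

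Replicate numbers come from the labels. Deviations from genotype means, over 13422 genes, correlated at 0.233 to 0.628 between same-numbered libraries and at -0.375 to 0.144 between others, so the numbers were taken to pair the libraries. Such deviations cancel within a genotype, so higher values between same-numbered libraries push the others down. The highest value, 0.628, was between the replicate 1 libraries, which are Xist-low in both genotypes. Pairs of libraries of 1 genotype differed by more than counting noise (chi-square per degree of freedom 5.52 to 22.6). Positions and exon overlaps came from GENCODE M39, which holds 98.8% of the gene identifiers. Programs were tested on simulated data. The 8 genes and all lists were chosen with earlier results of these data known, and the motifs after the promoters were read. The named genes were the 8, the 3 most alike to each, called genes of each list and otherwise its extremes among genes with a mean of at least 50, markers with their list, and called genes of the region. Others named among a list's members are examples chosen afterwards. The calls among the striatum markers are not reported here.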

Additional observations from a re-analysis of the deposited data

Results flagged for a closer look

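Each genotype has 4 libraries, and 1 library was screened against the other 3 for 7 genes, 4 ratios and 10 marker sums in both genotypes. In 4 of 42 groups the most distant library was separated from the others by more than the critical share of the range, where chance gives about 2.1. Ndn in Ago2-L192P replicate 1 was at 3950.0 normalized counts against 4141 to 4169.6 in the others, a gap of 0.87 of the range, and that library is also the Xist-low one of its genotype. Peg12 in WT replicate 1 was at 3.64 against 2.17 to 2.34, which rests on 4 raw counts or fewer in each library. The striatum marker sum in Ago2-L192P replicate 3 was 21605 against 26469 to 27163. The microglia marker sum in WT replicate 1 was 4385 against 5298 to 5451. Without Ago2-L192P replicate 1 the log2 fold change of Ndn was 0.26 with a DESeq2 adjusted p of 0.0709. What set these libraries apart was not tested.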

How the results depend on the processing

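All genes called numbered 253 with DESeq2, 49 with edgeR, 41 with limma-voom, 533 with the replicate block, 500 in the Xist-high libraries, 459 with Xist level as a covariate and 572 in the Xist-high libraries with the replicate block. They ranged from 112 to 496 when 1 library was left out, from without WT replicate 4 to without WT replicate 1. The share of calls that were higher in Ago2-L192P was 58.1%, 72.4% with total-count size factors, 79.6% with edgeR and 82.9% with limma-voom. It was under 50% with the replicate block (42.8%, and 42.3% with independent filtering off), in the Xist-high libraries (47.6%, and 40.0% with the replicate block) and with Xist level as a covariate (49.7%). Genes of the domain called numbered 1, and 0 with edgeR and limma-voom (2 at an unadjusted p under 0.05 in each), 2 in the Xist-high libraries, with or without the replicate block, 2 with Xist level as a covariate, 2 with the replicate block and independent filtering off, and 0 to 2 when 1 library was left out.

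The log2 fold change of Magel2 no longer passed with edgeR (1.25) and limma-voom (1.33), had no adjusted p with the replicate block (1.37) and ranged from 1.06 to 1.69 when 1 library was left out. Of 19 alternatives with an adjusted p for it, 13 called it. Ndn passed with the replicate block, with or without independent filtering (0.24), in the Xist-high libraries without and with the replicate block (0.33 and 0.33) and with Xist level as a covariate (0.24), and ranged from 0.19 to 0.31 when 1 library was left out. Leaving out 1 library gave ranges of -0.03 to 0.33 for Mkrn3, below 0 without Ago2-L192P replicate 2 (-0.012) and without WT replicate 4 (-0.030). Snrpn ranged from -0.10 to 0.02 and was above 0 without Ago2-L192P replicate 3 (0.016). The ranges were 0.14 to 0.86 for Peg12, -0.15 to -0.03 for Snhg14 and 0.04 to 0.16 for Ube3a. The causes were not tested. Snrpn, Snhg14 and Ube3a were called in 0 of 20 alternatives, and the replicate block changed no other call among the 8 genes. Mkrn3 and Peg12, with the fewest counts, have the widest intervals.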
